A study of Oncorhynchus mykiss with 24 samples.

Results

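Among the RNAs that the egg of a rainbow trout lays down before fertilization, 52 stood out as strongly vegetal in hybrid embryos. They were chosen from 22773 genes of the maternal species O. mykiss by 2 conditions on the libraries of 1 hour post fertilization (hpf) and 1 day post fertilization (dpf). The level in the vegetal section B had to be 20 CPM or more, where CPM scales a gene's counts to the O. mykiss total of its library, and at least 6 times the level in the animal section A in each of the 6 eggs of these stages. 57 genes passed, and 5 of them were left out by symbol, namely grip2b, sybu, trim36 and 2 copies of axin1. The values at 1 hpf and 1 dpf chose the members and are given only as a description. The libraries of 0 hpf and 3 dpf were not used in the choice, and all tests are on them.

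RNAs are carried to the vegetal side of fish and frog oocytes by the Balbiani body, a cluster of mitochondria, endoplasmic reticulum and RNA near the nucleus, and by motor transport along microtubules. In zebrafish, vegetal RNAs and proteins move from the vegetal pole towards the future dorsal side after fertilization and take part in setting up the dorsal axis, and others join the germ plasm. Most of the egg's vegetal volume is yolk, and in fish the cells form only at the animal pole.

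Eggs of O. mykiss were fertilized with sperm of Salvelinus fontinalis (brook trout), and all groups come from this one cross. TOMO-seq was used, in which a sample is cut across one axis and each section is sequenced separately; here each egg or embryo gave an animal section A and a vegetal section B. The stages were 0 hpf, 1 hpf, 1 dpf (early blastula) and 3 dpf (mid-blastula). The 0 hpf labels call the sample a non-fertilized egg in one field and a freshly fertilized egg in another, and those of 1 hpf give a 1-cell egg in one and early cleavage in another. The labels number 3 biological replicates per group and do not say whether a replicate is 1 egg or several. Of 24 labelled libraries 20 were used: 2 per section at 0 hpf and 3 dpf, and 3 per section at 1 hpf and 1 dpf. Total counts ran from 5011274 to 9986001 per library. The section labels were checked on known vegetal RNAs. Of 55 genes on a list of such RNAs of fish and frog eggs, 14 were higher in B and 1 lower at 0 hpf, and 26 and 14 at 3 dpf. That list holds none of the 52 members and 3 of the genes left out. Markers of blood had no gene in the table. Of 27 ovarian follicle symbols 22 had none, and the 5 genes found summed to 71.7 to 124 CPM in the 0 hpf libraries. Most of that sum came from the collagen genes col1a1a and col1a2, at means of 32.2 and 33.7 CPM in A and 34.4 and 49.8 CPM in B.

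Together the 52 members made up 1.07% ± 0.233 (SD, n = 2) of the O. mykiss counts in section B at 0 hpf and 0.138% ± 0.0708 (n = 2) in section A. In section B the share was 1.67% ± 0.316 (n = 3) at 1 hpf, 2.14% ± 0.454 (n = 3) at 1 dpf and 2.21% ± 0.481 (n = 2) at 3 dpf. In section A it was 0.129% ± 0.0184 at 1 hpf, 0.206% ± 0.0370 at 1 dpf and 0.292% ± 0.0664 at 3 dpf. The sections did not overlap at any stage: the highest section A library, at 3 dpf, held 0.339% and the lowest section B library, at 0 hpf, 0.907%. The libraries of 1 hpf and 1 dpf also chose the members for this difference. Because levels are shares of a library, more copies of these RNAs and fewer copies of other RNAs cannot be told apart. In bulk sections, fewer cells and less RNA per cell cannot be told apart either.

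**Figure D1:**
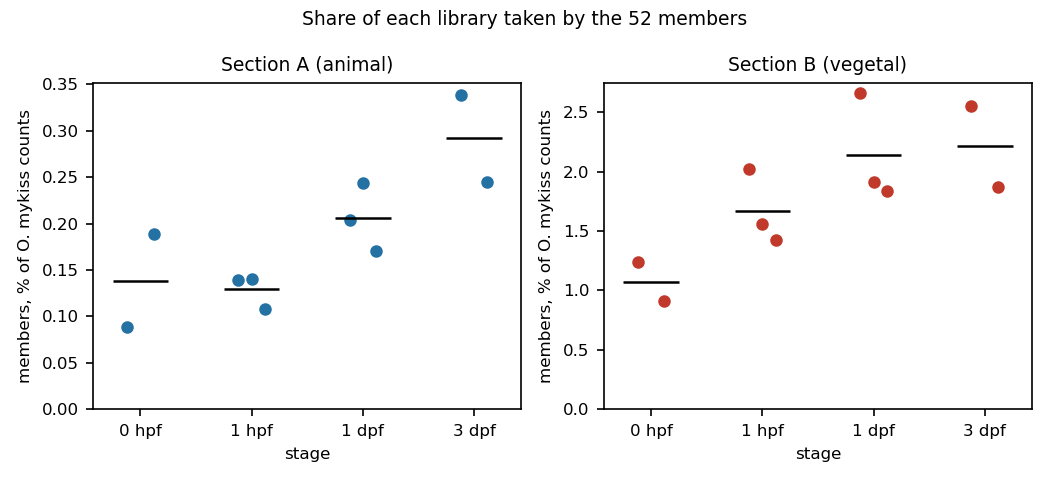
Share of the O. mykiss counts of each library taken by the 52 members (y axis, percent; the 2 panels have different scales), by stage (x axis), for section A (left) and section B (right). Each point is 1 library and each bar the group mean; section B runs from 0.907% to 2.66% and section A from 0.0882% to 0.339%.

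At 0 hpf, before the stages used to choose them, 51 of the 52 members were higher in section B and 0 were lower (edgeR quasi-likelihood test across all genes, Benjamini-Hochberg adjusted p under 0.05). Of all 32225 genes tested, 1.65% were higher and 0.366% lower in B at this stage, and of the O. mykiss genes 2.25% were higher. The members' log2 fold change of B against A had a median of 2.96, from 1.55 to 4.27, while that of all O. mykiss genes tested was -0.02. In 52 of 52 members both section B libraries lay above both section A libraries (25% of all genes and 31.4% of O. mykiss genes did so). The spread rests on few libraries. The adjusted calls fell to 0 without replicate 1 of section A or without replicate 1 of section B at 0 hpf, and to 22 and 1 (zgc:123305) without replicate 1 or 2 of section A at 3 dpf, whose spread the model also uses. In each of these fits all 52 members still had an unadjusted p under 0.05, with medians from 2.46 to 2.96, where 12.7% of all genes had one in the full fit. The one member not called was si:ch211-157c3.4 (LOC118947743), at 5.41 and 11.8 CPM in A and 29.0 and 22.8 CPM in B (log2 1.55 ± 0.41 SE, adjusted p = 0.0891). It was called with the replicate number as a block, which gave 52 calls among the members and 1325 in place of 649 among all genes.

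With equal replicate numbers taken as the same egg, the 2 eggs of 0 hpf were unlike in these RNAs. This pairing is uncertain at 0 hpf, where same-numbered sections correlated at -0.242. With 2 libraries per group, the value for sections of different number (0.242) is fixed by this one and adds nothing. In replicate 1 the median member was higher in B by a log2 difference of 3.77, in replicate 2 by 2.24, and 51 against 14 members reached the factor of 6. Of O. mykiss genes with a mean of 1 CPM or more, 1.13% reached it in replicate 1 and 0.147% in replicate 2. The lower number in replicate 2 was thus not particular to the members. Section A of replicate 2 held more of every one of the 52 members than section A of replicate 1, and section B of replicate 2 held less of 49. The same counts over all genes are not given here, so whether this is particular to the members was not tested. All O. mykiss genes had a median of 0.00 in both eggs.

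**Figure D2:**
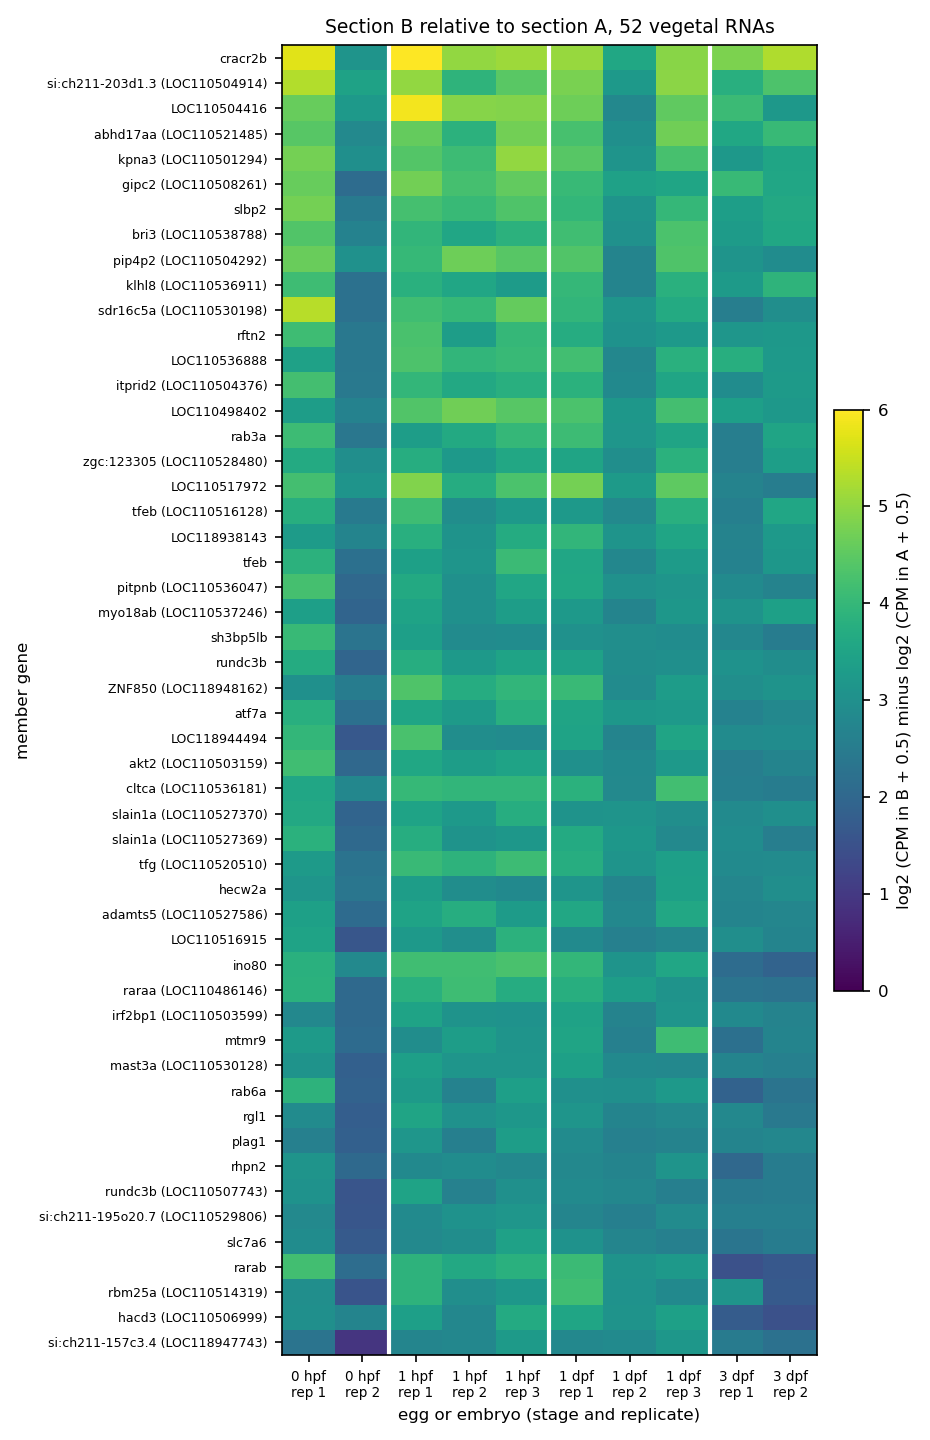
Log2 difference between section B and section A (colour, from 0 to 6, on CPM plus 0.5) for the 52 members (rows, ordered by the mean of the 0 hpf and 3 dpf eggs) in the 10 eggs or embryos (columns, by stage and replicate). Columns take equal replicate numbers as the same egg, and members were chosen on the 6 middle columns. The median is 3.77 and 2.24 in the 0 hpf columns and 2.79 and 2.91 in the 3 dpf columns.

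At 3 dpf all 52 members were higher in section B by the same test. Of all genes tested 12% were higher and 41.6% lower in B at this stage, and 8904 of the 13403 lower ones were S. fontinalis genes. Of the 22453 O. mykiss genes tested, 3800 (16.9%) were higher and 4499 lower. The median log2 fold change was 2.98, from 1.66 for rarab to 5.12 for cracr2b, and that of all O. mykiss genes 0.03. No section A library overlapped a section B library in any member, and 19.9% of all genes were separated in the same direction. The factor of 6 was met by 37 members in replicate 1 and 36 in replicate 2, and by 0.836% and 0.729% of O. mykiss genes. Without replicate 2 of section A at 3 dpf, rarab (adjusted p = 0.0731) and sdr16c5a (0.0745) were no longer called, and without replicate 1 rarab (0.0509) was not. Other RNAs lay on the opposite side at 3 dpf. Of 20 marker genes of the blastula's surface layers 14 were lower in B, and their summed level was 820.1 to 1072 CPM in A and 339.1 to 378.4 CPM in B. Of 7 liver and yolk genes 6 were lower in B, with sums of 380.6 to 392.9 CPM in A and 22.6 to 33.4 CPM in B. Their part in the members' section difference was not tested.

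**Figure D3:**
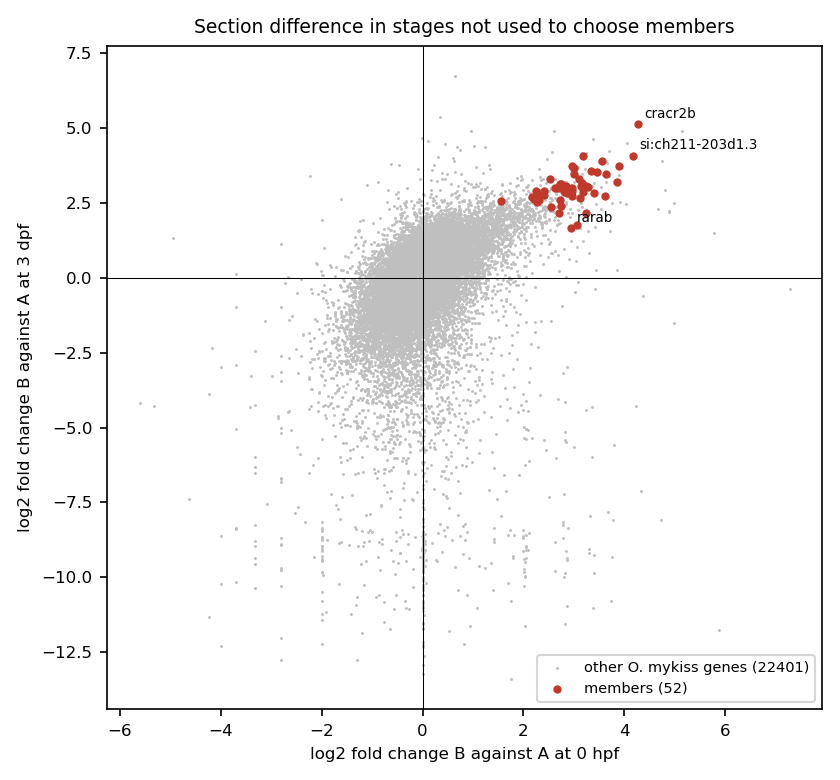
Fitted log2 fold change of section B against section A at 0 hpf (x axis) and at 3 dpf (y axis) for the O. mykiss genes tested; red points are the 52 members and grey points the 22401 others. The members lie between 1.55 and 4.27 on the x axis and between 1.66 and 5.12 on the y axis.

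The members cover several cell functions, and each group below is described by the level per library in replicate order. Among genes of membrane traffic, gipc2, a PDZ adaptor whose family binds myosin VI on endocytic vesicles, stood at 1.95 and 8.70 CPM in section A and at 59.5 and 39.5 CPM in section B at 0 hpf. At 3 dpf it stood at 10.4 and 6.18 CPM in A and 179.4 and 78.2 CPM in B (log2 4.06 ± 0.63, adjusted p = 0.000219). The sections were far apart at both stages, while the 2 section B libraries of 3 dpf differed from each other more than those of 0 hpf. abhd17aa, which encodes an enzyme that removes palmitate from membrane proteins, measured 6.92 and 16.3 CPM in A against 161.5 and 117.6 CPM in B at 0 hpf. Its log2 fold change was 3.55 ± 0.41 at 0 hpf and 3.89 ± 0.42 at 3 dpf. The small GTPases rab3a, of regulated secretion, and rab6a, of Golgi traffic, had log2 fold changes at 3 dpf of 3.02 ± 0.52 and 2.17 ± 0.44. cltca, the clathrin heavy chain, measured 33.1 and 50.4 CPM in A and 395.0 and 346.8 CPM in B at 0 hpf, and 165.3 and 134.1 against 996.1 and 767.2 CPM at 3 dpf. Both sections of cltca were thus higher at 3 dpf in every library, without overlap. So were 48.2% of all genes in A, S. fontinalis genes included, and 9.91% in B. In the edgeR test the change was called in A (adjusted p = 0.000168) and not in B (adjusted p = 0.168). Other members of this kind were tfg, which acts at exit sites of the endoplasmic reticulum, rftn2 of the raftlin family, the membrane protein gene bri3 and 2 copies of rundc3b, a RUN domain gene. On the whole list of vesicle traffic genes, 18 of 216 were higher in B and 2 lower at 0 hpf, and 75 and 32 at 3 dpf. These counts include the 4 members on the list, which were chosen for a high level in B. Of the lists below, that of phosphoinositides holds 2 members and those of calcium, motors and cytoskeleton, nuclear transport and chromatin 1 each. Of the 22453 O. mykiss genes tested, 506 (2.25%) were higher and 107 lower at 0 hpf. At 3 dpf 3800 (16.9%) were higher and 4499 lower. Most genes of the list, as of all O. mykiss genes, were thus not called higher in B. These shares also stand beside the lists below.

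A second group acts on phosphoinositides and calcium. cracr2b encodes an EF-hand protein related to regulators of store-operated calcium entry, and it had the highest log2 fold change of all members in both stages tested. It measured 0.973 and 5.50 CPM in A and 77.4 and 50.9 CPM in B at 0 hpf (log2 4.27 ± 0.75, adjusted p = 0.0145). At 3 dpf it measured 10.9 and 2.57 CPM in A and 318.6 and 119.8 CPM in B (5.12 ± 0.77, adjusted p = 0.000172). In the eggs used for the choice, section B held 94.8 to 270.9 CPM of it and section A at most 10.1 CPM. Its values in section A were low and scattered, and its SE was the highest among the members at 3 dpf. itprid2, whose mammalian counterpart tethers inositol trisphosphate receptors to actin, measured 31.9 and 84.0 CPM in A and 600.9 and 452.3 CPM in B at 0 hpf. pip4p2, a phosphatase of phosphatidylinositol bisphosphate, measured 2.81 and 6.27 CPM in A and 81.2 and 54.6 CPM in B (log2 3.86 ± 0.49, adjusted p = 0.00524). mtmr9, a catalytically inactive myotubularin, had a log2 fold change of 2.72 ± 0.32 at 0 hpf, and pitpnb, a phosphatidylinositol transfer protein, one of 2.96 ± 0.44. Of 69 tested phosphoinositide genes, 7 were higher and 0 lower in B at 0 hpf, and 19 and 11 at 3 dpf. Of 54 calcium genes, 8 were higher and 2 lower at 0 hpf, and 21 and 10 at 3 dpf.

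Signalling and cytoskeletal members included the kinase genes akt2, of the insulin pathway, and mast3a, together with rgl1, an exchange factor for Ral GTPases, and rhpn2. mast3a took 131.1 and 220.5 CPM in A and 1112 and 784.4 CPM in B at 0 hpf. At 3 dpf it took 351.1 and 292.6 CPM in A and 2312 and 1789 CPM in B (log2 2.77 ± 0.33, adjusted p = 3.4e-05). 2 copies of slain1a, a promoter of microtubule growth at plus ends, were both members, with log2 fold changes of 2.89 ± 0.43 and 3.03 ± 0.44 at 3 dpf. myo18ab, an unconventional myosin of the Golgi, measured 20.01 and 46.6 CPM in A and 212.6 and 178.2 CPM in B at 0 hpf, and 110.7 and 42.5 against 946.2 and 455.5 CPM at 3 dpf. Both sections of replicate 1 held more of it than those of replicate 2 at 3 dpf. Section A did so for 48 of the 52 members and section B for 44, and the same counts over all genes are not given here. Among 143 motor and cytoskeleton genes, 12 were higher in B and 2 lower at 0 hpf, and 38 and 38 at 3 dpf.

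Members that act on the nucleus were also vegetal. Most genes on the lists of their kind were not called higher in B. The same holds for all O. mykiss genes tested, with 2.25% higher at 0 hpf and 16.9% at 3 dpf. kpna3, an importin alpha that carries proteins with a nuclear localization signal, measured 6.81 and 23.11 CPM in A and 196.2 and 186.4 CPM in B at 0 hpf (log2 3.64 ± 0.44, adjusted p = 0.00454). At 3 dpf it measured 48.4 and 38.3 CPM in A against 446.5 and 446.4 CPM in B (3.45 ± 0.44). Of 49 nuclear transport genes, 4 were higher and 0 lower in B at 0 hpf, and 5 were higher and 32 lower at 3 dpf. ino80, the motor subunit of a chromatin remodelling complex, measured 22.4 and 40.1 CPM in A and 319.2 and 286.0 CPM in B at 0 hpf (log2 3.24 ± 0.37, adjusted p = 0.00454). Of 182 chromatin genes, 5 were higher and 6 lower at 0 hpf, and 22 were higher and 94 lower at 3 dpf. Transcription factor members were 2 copies of tfeb, a regulator of lysosome genes, with plag1, atf7a, the retinoic acid receptors raraa and rarab, the corepressor irf2bp1 and the zinc finger gene ZNF850. sdr16c5a, whose human counterpart oxidizes retinol, was also a member, at 13.3 and 71.1 CPM in A and 566.0 and 339.5 CPM in B at 0 hpf. Its 2 section A libraries differed more than those of most members named here, and its log2 fold change of 3.40 ± 0.66 had a wide error.

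RNA-binding members were slbp2, whose frog counterpart binds the stem-loop of histone RNAs in oocytes, and the splicing regulator rbm25a. slbp2 measured 38.9 and 135.5 CPM in A and 1061 and 754.8 CPM in B at 0 hpf, and 188.9 and 113.7 against 1955 and 1395 CPM at 3 dpf (log2 3.57 ± 0.52, adjusted p = 0.000141). Section B stood at 5 or more times section A in every one of these eggs. Among the rest, klhl8 encodes an adaptor of a cullin ubiquitin ligase and hecw2a a HECT ubiquitin ligase. adamts5 encodes a secreted protease of the extracellular matrix, slc7a6 an amino acid transporter and hacd3 a dehydratase of very long chain fatty acid synthesis. si:ch211-203d1.3, which has no assigned function here, measured 21.2 and 63.6 CPM in A and 859.8 and 703.8 CPM in B at 0 hpf. At 3 dpf it measured 184.9 and 79.0 CPM in A against 2535 and 1594 CPM in B (log2 4.07 ± 0.55). 7 members carry no symbol, and one of them, LOC118944494, is annotated as a long non-coding RNA.

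Other lists held no member, although the lists are not complete: the ubiquitin list lacks klhl8 and hecw2a, and the RNA-binding list lacks slbp2 and rbm25a. The Wnt list also holds 2 and the ubiquitin list 1 of the genes that passed the thresholds but were left out by symbol. Of 64 Wnt genes, 7 were higher and 2 lower in B at 0 hpf and 21 and 21 at 3 dpf; of 244 ubiquitin genes, 13 and 5, then 64 and 71. Of 138 RNA-binding genes 8 were higher and 0 lower at 0 hpf and 33 and 54 at 3 dpf. Of 75 cell surface and adhesion genes, the counts were 3 and 0, then 11 and 25, and of 30 oocyte genes used as a contrast 0 and 2, then 9 and 6.

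In section B the members' mean levels were higher at later stages, but the contrast of 3 dpf with 0 hpf called 0 members. The median member stood at 1.51 times its 0 hpf mean at 1 hpf, 1.96 times at 1 dpf and 1.98 times at 3 dpf. The median O. mykiss gene stood at 0.942, 0.906 and 0.870 times. The values at 1 hpf and 1 dpf also chose the members, in part for a high level in B. The libraries of 3 dpf and 0 hpf took no part in the choice. The rule asked for a high level in B after 0 hpf, however, and can favour genes that had risen by then. The rise from 0 hpf to 3 dpf is thus not independent of the choice. In the edgeR fit of 3 dpf against 0 hpf, the members had a median log2 fold change of 1.24, from 0.46 to 2.11, and all O. mykiss genes one of 0.01. An unadjusted p under 0.05 was reached by 44 of 52 members and by 11% of all genes. Both 3 dpf libraries lay above both 0 hpf libraries in 47 members and in 9.91% of all genes. The test called 0 genes higher and 1 lower among all genes (0% and 0.0031%), so the adjusted threshold passed nearly nothing in this contrast. DESeq2 called 27 members, the edgeR fit of all 20 libraries 1 (tfg), and the fit without replicate 2 of section B at 3 dpf 23.

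In section A, 28 members rose from 0 hpf to 3 dpf and 0 fell. Of all genes 37.7% rose and 5.7% fell, and 8949 of the 12146 that rose were S. fontinalis genes; of the O. mykiss genes 14.2% rose. The median member had a log2 fold change of 1.16, the median O. mykiss gene 0.00. The members' median was 0.67 without replicate 1 and 1.98 without replicate 2 of section A at 0 hpf. The count was 8 without replicate 1 of section A at 0 hpf and also 8 without replicate 1 of section A at 3 dpf, and 19 when libraries were scaled over both species. Largest were ino80, from 22.4 and 40.1 to 207.8 and 151.3 CPM (log2 2.64 ± 0.36, adjusted p = 8.33e-05), and pip4p2, from 2.81 and 6.27 to 29.3 and 17.0 CPM (2.47 ± 0.49, adjusted p = 0.00118). rarab followed, from 5.19 and 18.6 to 61.3 and 55.8 CPM (2.42 ± 0.44, adjusted p = 0.000676), then LOC110517972 (2.23 ± 0.33), which has no symbol, hacd3 (1.98 ± 0.40) and cltca (1.95 ± 0.29). The 3 dpf libraries of these 6 genes lay above those of 0 hpf in section A without overlap, as did those of 35 members in all. The same held for 48.2% of all genes. These include the S. fontinalis genes, of which 91.6% were called higher at 3 dpf. Levels in section A at 1 dpf, which also chose the members, were 48.8 to 82.7 CPM for ino80, between those of the 2 stages, and 14.6 to 20.02 CPM for rarab, far below those of 3 dpf.

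A change of the section difference between 0 hpf and 3 dpf was called for 0 of 52 members in edgeR, with 3 at an unadjusted p under 0.05 (27.8% of all genes), and 1 in DESeq2. Of all genes, 14.9% had a smaller and 1.41% a larger difference of B minus A at 3 dpf. Of the 22453 O. mykiss genes tested, 1251 had a smaller and 453 a larger one, and 4182 had an unadjusted p under 0.05. The median change of log2 over members was 0.08, and its direction rested on single libraries. It was 0.54 without replicate 1 and -0.58 without replicate 2 of section A at 0 hpf, and it lay between these values without any other library. It was also -0.13 and -0.17 without replicate 2 of section A at 3 dpf or replicate 2 of section B at 0 hpf, -0.13 without replicate 1 of section B at 3 dpf, -0.06 on library totals alone and 0.33 with scaling over both species. The lowest values were -1.30 ± 0.52 for hacd3 (adjusted p = 0.123), -1.28 ± 0.58 for rarab and -1.09 ± 0.48 for ino80, and the highest 1.01 ± 0.59 for si:ch211-157c3.4. hacd3 was the member called by DESeq2. rarab was called without replicate 2 of section A at 0 hpf (-2.45 ± 0.46, adjusted p = 0.0106) and ino80 without replicate 1 of section B at 3 dpf (-1.54 ± 0.46, adjusted p = 0.0437). Both were also called when the section numbers of 0 hpf were crossed, a pairing chosen after seeing the data. The SE of this change ran from 0.39 to 1.01 on the log2 scale over the members, so changes of that size were not detectable with 2 libraries per group. Changes of more than 1 SE also went uncalled, such as that of hacd3.

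Salmonid genomes carry many genes in several copies from an ancient whole-genome duplication, so the same symbol often names more than 1 gene. For 27 members the table holds other O. mykiss genes of the same symbol or the same zebrafish ortholog that are not members, 35 in all. Since members were chosen for a large section difference and their copies were not, a smaller difference in the copies is partly set by the choice and is described without a test of the pair. At 0 hpf the median log2 fold change of these 35 genes was 0.61, with 8 higher in B, 1 lower and 26 not called. At 3 dpf it was 0.84, with 17 higher, 6 lower and 12 not called. Copies of rundc3b, slain1a and tfeb met the rule in pairs.

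kpna3 shows the widest range. Beside the vegetal LOC110501294, LOC110520522 was also higher in B at 3 dpf, at 75.1 and 64.8 CPM in A and 409.6 and 299.2 CPM in B (log2 2.44, adjusted p = 3.6e-05). LOC110527340 measured 85.5 and 55.3 CPM in A and 14.1 and 23.5 CPM in B (-1.83, adjusted p = 0.000508), and LOC110495674 measured 43.6 and 41.4 against 2.27 and 4.52 CPM (-3.57, adjusted p = 2.94e-05). The same symbol thus stood on both sides of the embryo at 3 dpf, while at 0 hpf the last 2 copies were not called (-0.10 and -0.86).

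cltca had 4 other copies, at log2 -0.36 to -1.76 at 3 dpf, 3 of them lower in B. The rbm25a copy LOC110506001 was lower in B at 3 dpf (-0.98, adjusted p = 0.00801), against 2.63 ± 0.43 for the member. By contrast the bri3 copy (3.07) and the rhpn2 copy (2.497) had differences close to those of the members, 3.53 and 2.36. Of the 35 copies, 34 had a log2 fold change below that of their member at 0 hpf and 32 at 3 dpf. The hacd3 copy LOC118964981, at low counts, held 0 and 4 counts in A and 52 and 67 in B at 0 hpf. At 3 dpf it held 20 and 2 against 150 and 71. The member hacd3 held 16 and 21 against 129 and 177 counts at 0 hpf, and 29 and 33 against 140 and 154 at 3 dpf. How reads that match several copies were assigned is not stated, so values of near-identical copies are uncertain.

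**Figure D4:**
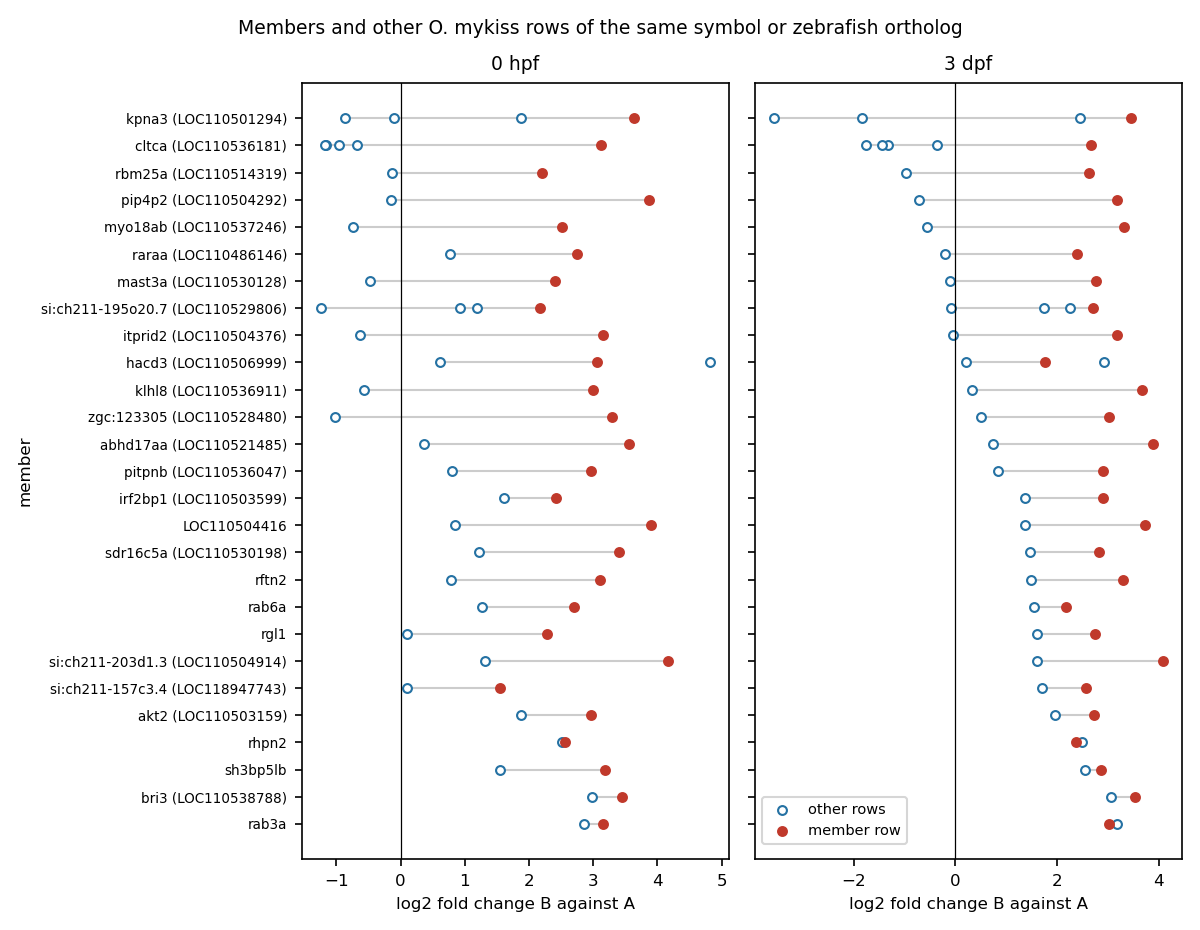
Fitted log2 fold change of section B against section A (x axis) for 27 members (red) and the 35 other O. mykiss genes of the same symbol or zebrafish ortholog (open blue), at 0 hpf (left) and 3 dpf (right), 1 row per member. Most blue points lie left of the red one, and the 4 kpna3 genes at 3 dpf run from -3.57 to 3.45.

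The deposited ortholog table pairs members with S. fontinalis genes, and the counts of these partners are described here by section. Of the members, 28 had such a partner in the table, 32 genes in all, of which 31 were tested. At 0 hpf these partners already held 339 counts in section A and 2005 in section B, summed over both libraries of each section. The labels call these eggs non-fertilized or freshly fertilized, so the counts of 0 hpf are not evidence of RNA made from the father's gene. How far the counts of later stages are RNA of the father's gene or maternal reads placed on it was not tested. Low counts are thus uncertain at every stage. 8 partners were higher in B and 0 lower at 0 hpf (0.256% and 0.113% of S. fontinalis genes).

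At 3 dpf the partners held 2452 and 2078 counts in A and 1377 and 1284 in B. In section A, 24 of them rose from 0 hpf to 3 dpf, where 91.6% of S. fontinalis genes did. Of the 31, 11 were lower in B at 3 dpf and 8 higher, against 91.1% lower and 0.542% higher among S. fontinalis genes. Partners higher in B included si:ch211-203d1.3, with 27 and 27 counts in A and 211 and 317 in B, and myo18ab, with 21 and 18 against 162 and 113. Both leaned to B already at 0 hpf, summed over the libraries of each section. There si:ch211-203d1.3 held 16 counts in A and 318 in B, and myo18ab 14 and 122. Their counts in B at 3 dpf thus do not show on which side paternal RNA lay.

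The partner of ino80 went the other way, with 713 and 712 counts in A and 104 and 126 in B at 3 dpf (log2 -3.11 ± 0.29), after 15 counts in A and 170 in B at 0 hpf. The raraa partner held 164 and 227 counts in A against 0 and 3 in B, and the rarab partner 88 and 52 against 2 and 13. A kpna3 partner, LOC129859832, held 198 and 123 counts in A and 0 in both section B libraries. The maternal ino80 and rarab genes were among the 3 members with the highest fold change in section A over the same time. Whether paternal reads placed on maternal genes take part in that was not tested.

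**Figure D5:**
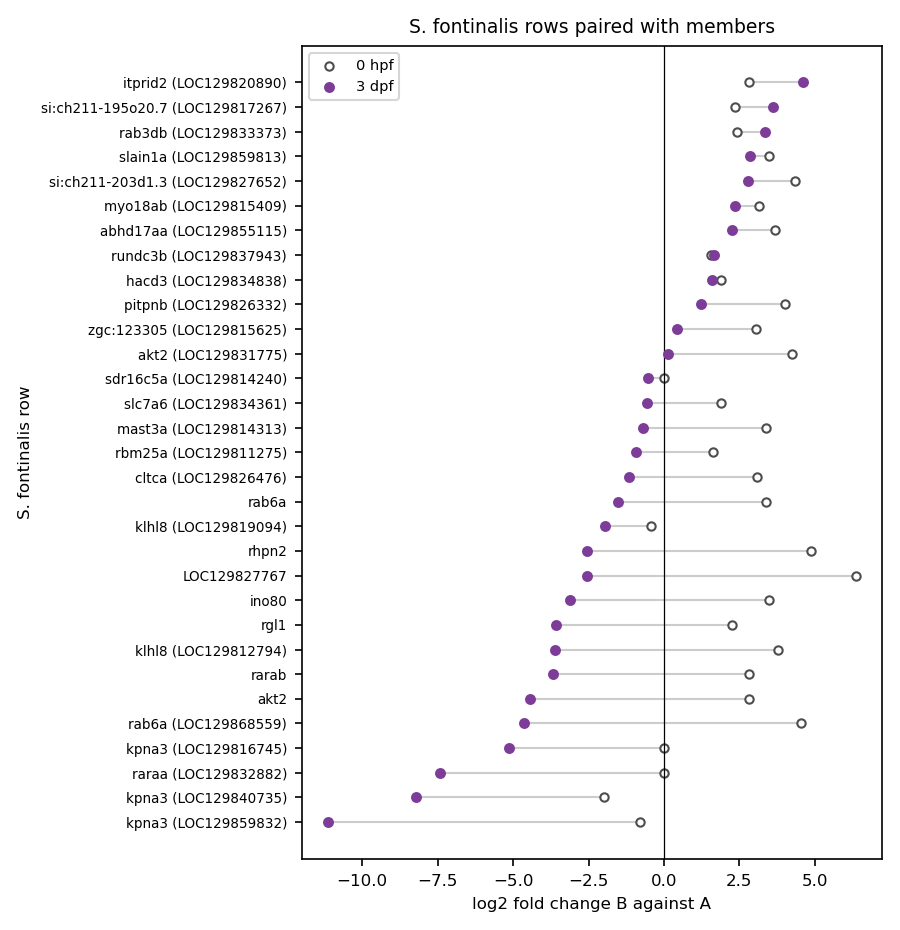
Fitted log2 fold change of section B against section A (x axis) for the 31 tested S. fontinalis genes paired with members (y axis), at 0 hpf (open) and 3 dpf (purple). At 3 dpf 12 of 31 lie above 0, and 26 of 31 did at 0 hpf, where 2 had 0 counts in both sections; the most negative values belong to genes with 0 to 3 counts in section B and depend on the prior count of the fit.

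Near the threshold, the members with the lowest ratio in their weakest egg were si:ch211-195o20.7 (6.07), rundc3b LOC110507743 (6.14) and slc7a6 (6.18). Just outside it were dazap2 (5.99), ptpra (5.98) and agpat3 (5.97). A factor of 4 would give 172 members before any other change of the rule, a factor of 10 would give 2, and a minimum of 50 CPM would give 46. Among the 49 protein-coding members on a numbered chromosome, no 2 are neighbours in the RefSeq order of protein-coding genes of assembly USDA_OmykA_1.1. The closest pair, LOC110536888 and klhl8, has 13 protein-coding genes between them. The long non-coding member LOC118944494 was not part of this order.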

How the data were processed

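RNA was measured in sections A and B of hybrid eggs and embryos at 4 stages. Per the labels' protocols, total RNA was cleaned with LiCl, and 70 ng went through ribosomal RNA depletion and a directional library kit. Per the submitters' processing notes, the tools were HTSeq 2.0.4, STAR 2.7.11, fastp 0.23.4 and, with no role given, DESeq2. Genome builds, strand setting and the assignment of reads shared by species or copies are not given in the sources used here, so no coordinates are printed. The deposited table holds raw counts per gene (22773 O. mykiss, 9992 S. fontinalis, 20 libraries), and only these counts were used here. The deposited ortholog table gave symbols for 28 members, 17 had their own and 7 had none. All 52 members were found in RefSeq's gene table, 51 as protein coding.

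Levels are CPM of O. mykiss counts, and log2 differences per egg use CPM plus 0.5. edgeR 4.0.16 (R 4.3.3) fitted the 8 libraries of 0 hpf and 3 dpf with a mean per stage and section, edgeR's expression filter, O. mykiss totals and TMM factors. Its quasi-likelihood test ran over 32225 genes of both species with Benjamini-Hochberg adjustment at 0.05. It was also run on simulated counts, whose dispersion was set lower than the common dispersion of 0.0867 fitted here. That run was thus easier than these data and says little about them. Errors of log2 fold changes are SE. p-values reflect the spread among 2 libraries per group. The design text says that samples were cut into A and B, so equal replicate numbers were taken as the same egg. Same-numbered sections correlated at -0.242 at 0 hpf, 0.369 to 0.707 at 1 hpf and 1 dpf, and 0.462 at 3 dpf (deviations from group means, 14742 genes). Alternatives were DESeq2 1.42.0, other scalings, no filter, all 20 libraries, the replicate block and leaving out each library.

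Members and gene lists were chosen with earlier results of these data known. Members with a symbol were named when on a role list, among the 15 such members with the highest mean section difference at 0 hpf and 3 dpf, among the 5 such members with the largest called stage change, or not called. Others were named after their values were seen, to show their roles.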

Additional observations from a re-analysis of the deposited data

How the results depend on the processing

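All 52 members kept a positive section difference at 0 hpf and 3 dpf under every alternative run. At 0 hpf, where 51 members and 649 genes were called, leaving out 1 library gave 0 to 52 members and 0 to 1332 genes. For all genes DESeq2 called 2350, the fit of all 20 libraries 1259 and the replicate block 1325. With section numbers crossed at 0 hpf, an alternative chosen after seeing the data, 1881 genes and 52 members were called. Apart from si:ch211-157c3.4 at 0 hpf, the replicate block changed no call among the members. At 3 dpf leaving out 1 library gave 50 to 52 members. Scaling over both species moved the median log2 of all genes at 3 dpf from -0.58 to -0.29, and the calls from 3853 higher and 13403 lower to 5861 and 12132; it moved that of section A over time from 0.46 to 0.16. For section B over time (0 members, 1 gene), DESeq2 called 27 members and 968 genes, all 20 libraries 1 and 57, no filter 0 genes, and leaving out 1 library 0 to 23 members and 0 to 1811 genes. For section A over time leaving out 1 library gave 8 to 39 members. For the change of the section difference (0 members, 5261 genes), DESeq2 called 1 and 9545, the crossed numbers 2 and 5424, and leaving out 1 library 0 to 1 and 2248 to 6853. In section A over time 3 uncalled members changed sign. LOC118944494 went from 0.23 to -0.056 (both species scaling), -0.25 (without replicate 1 of 0 hpf) and -0.20 (without replicate 2 of 3 dpf), cracr2b from 1.201 to -0.23 (without replicate 1 of 3 dpf), and si:ch211-157c3.4 from 0.04 to -0.25 (both species), -0.071 (library totals), -0.40 and -0.15 (without replicate 1 of 0 hpf or of 3 dpf). Leaving out 1 library gave at most 0.98, 2.89 and 0.69 for these 3. The cause of these shifts was not tested. Where leaving out a library left a group with 1 sample, it was assumed to vary like the others. Depth limits the S. fontinalis partners, whose counts summed to 339 in section A at 0 hpf.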
